A study of Mus musculus with 48 samples.

Results

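The comparison described here is that of C2C12 myoblasts stretched for 3 h with non-stretched myoblasts kept for the same 3 h. Its members are the libraries labelled as myoblasts at 3 h, 4 stretched and 4 non-stretched, 8 of the 48 libraries of the series. C2C12 is an established mouse line of muscle precursor cells. The myoblasts were grown in serum on flexible, collagen-coated membranes and stretched 2 days after plating by a cyclic pull that is equal in every direction. The non-stretched cells stood on the same kind of plate in the same medium, and RNA was taken as soon as the stretch ended. The labels name no transgene, allele or drug in either group. The 4 libraries of a group bear the numbers 7, 8, 9 and 10, and the sample titles tag 7 and 8 with B27 and 9 and 10 with B31. By the study's methods, myoblasts were sampled in 2 experiments, with 2 samples of a group in each, and the tags are read here as these experiments. The pooled test treats the 4 samples of a group as independent, and its p-values measure the spread between these samples. The other 3 comparisons used beside it, myoblasts at 1 h, myoblasts at 6 h and differentiated cells at 3 h, each have non-stretched libraries of their own.

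Muscle cells sense deformation through integrins, the actin cytoskeleton and stretch-gated channels, and pass it on through calcium, MAP kinases and the co-activators YAP and MRTF. Immediate early genes, such as those of the Fos and Egr families, answer within minutes without new protein synthesis and decay quickly, so that a later sample also holds the products of the genes they control. Myoblasts that stop dividing switch on myogenin and then the proteins of the sarcomere.

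The 3 h libraries held 48447318 to 59115866 counts in non-stretched cells and 53159562 to 68967899 in stretched cells, so the stretched libraries were on the whole deeper, with overlap. Levels are given as CPM, the count of a gene relative to its library's TMM-scaled total. All 10 markers of proliferating myoblasts were measured in every library, and their summed level ran from 2175 to 2318 CPM in non-stretched and from 2255 to 2301 CPM in stretched cells. Myod1, which sets the muscle lineage, lay between 98.0 and 118 CPM, while Ckm, the creatine kinase of mature muscle, did not exceed 0.222 CPM. The summed level of the 12 markers of differentiated muscle ran from 29.2 to 66.4 CPM in non-stretched and from 33.0 to 38.4 CPM in stretched cells. Ttn was the highest of them, at 16.25 to 49.04 CPM, and Ckm was among the lowest. No other marker of this list exceeded 3.29 CPM, reached by Myog in a single library. By the median over the libraries Mef2c came after Ttn, at 2.62 CPM, with Myog at 1.41 CPM. The markers of other cell types were near 0: those of adipocytes summed to at most 0.151 CPM, those of leukocytes to 1.58 CPM and those of endothelial cells to 0.517 CPM, whereas osteoblast and epithelial markers summed to at most 14.4 and 17.7 CPM, mostly from Phex and Krt14, which did not pass the test (log2 fold changes -0.041 and -0.044, adjusted p = 0.659 and 0.565, edgeR). Principal components of the 8 libraries put all stretched libraries on one side of the first component, which held 22.6% of the variance. The gap was small, from -0.63 in non-stretched replicate 10 to 1.11 in stretched replicate 7. Within each group this component also set the libraries of B31 above those of B27.

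Stretching for 3 h moved many genes a little and few genes far. By the quasi-likelihood test of edgeR on 14813 genes, 68 were upregulated (0.459% of those tested) and 185 were downregulated (1.25%), where a call needs a Benjamini-Hochberg adjusted p under 0.05 and a log2 fold change of 0.58 or more in size. By the adjusted p alone, 2373 genes were higher (16%) and 2346 lower (15.8%) in stretched cells, 31.9% together, and 94.6% of these changed by less than the limit. The median size of the log2 change was 0.10 over all genes and 0.17 among those past the adjusted p. Stretched and non-stretched libraries did not overlap in 204 of the 253 called genes (1.71% of those tested), 55 up and 149 down, against 31.3% of all tested genes, 15.9% with the stretched libraries above and 15.4% below. A test of whether the change exceeds the limit itself (glmTreat) left 3 genes up and 0 down, with 35 up and 61 down at an unadjusted p under 0.05.

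The direction of change went with the level of the gene. Among genes with a mean under 100 counts, 48 were called up and 123 down, these 171 make up most of the calls, and 28.4% of the genes past the adjusted p were higher in stretched cells. From 100 to 1000 counts the calls were 12 up and 57 down, and 18% of those past the adjusted p were higher. From 1000 to 10000 counts this share was 56.6%, and at 10000 counts or more it was 91.7%, with 2 genes up and 0 down. The median log2 fold change went from -0.071 in the lowest of these classes, over -0.084 and 0.012, to 0.062 in the highest. Differentiated cells at 3 h gave -0.0082, -0.066, 0.0043 and 0.062 for the same genes, myoblasts at 1 h -0.042, -0.037, 0.011 and 0.027, and myoblasts at 6 h 0.0004, -0.014, 0.0006 and 0.0033. The total count also differed between the groups, as given above, and its part in this was not tested. Thinning all libraries to the smallest total left 71 up and 172 down.

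**Figure D1:**
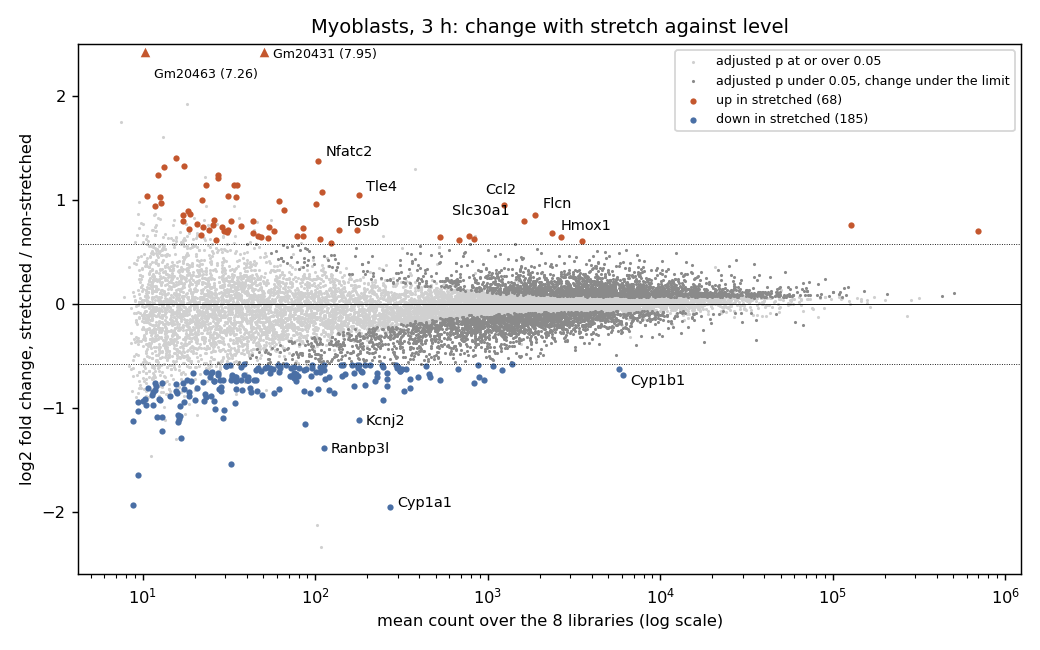
Each point is 1 of the 14813 genes tested, with its mean count over the 8 libraries (log scale) on the x axis and its log2 fold change, stretched over non-stretched, on the y axis; dotted lines mark the limit of 0.58 and triangles 2 genes above the plotted range. The 68 upregulated (orange) and 185 downregulated (blue) genes are mostly of low count, and the changes narrow as the count rises.

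Among the genes that average 100 counts or more and whose groups lie apart, the largest rise was that of Nfatc2 (GENCODE vM21 on GRCm38, chr2:168476410-168601657, minus strand), a calcium-activated transcription factor that calcineurin sends to the nucleus. Its level was 0.775, 0.671, 1.16 and 1.31 CPM in non-stretched libraries 7, 8, 9 and 10 and 2.53, 2.66, 2.87 and 2.02 CPM in the stretched ones. Every stretched library was above every non-stretched one, and the log2 fold change was 1.37 ± 0.19 (SE, n = 4 per group, adjusted p = 0.000139, edgeR). Tle4, a Groucho-type co-repressor, was at 2.18, 1.71, 1.94 and 2.11 CPM without and 4.85, 3.87, 4.19 and 3.45 CPM with stretch (1.05 ± 0.12, adjusted p = 3.48e-05, edgeR). That every stretched library was above every non-stretched one in both genes was required by their selection. Of the 20 tested genes of the NFAT and calcineurin list 7 were higher and 2 lower. Nfatc1 rose by 0.30 ± 0.047 on the log2 scale, as did Dyrk1a, a kinase that opposes NFAT, by 0.30 ± 0.027, whereas Nfatc4 fell (-0.47 ± 0.11).

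Ccl2 (chr11:82035571-82037453, plus strand), the chemokine that draws monocytes, was at 14.5, 15.1, 14.1 and 13.8 CPM in non-stretched and 28.2, 27.2, 27.1 and 28.7 CPM in stretched libraries. The spread within each group was small beside the gap, and the log2 fold change of 0.95 ± 0.038 had an adjusted p of 2.37e-08 (edgeR). Edn1, the vasoconstrictor endothelin-1, was at 2.71, 2.16, 2.32 and 1.98 CPM without and 2.85, 3.81, 3.6 and 4.76 CPM with stretch (0.71 ± 0.15, adjusted p = 0.00264, edgeR). The lowest stretched library of Edn1 was just above the highest non-stretched one, and without stretched replicate 10 its change was 0.575, under the limit. In experiment B27 alone the change of Edn1 was 0.46 and did not pass (adjusted p = 0.0972, edgeR), against 0.96 in B31 alone. Mmp10, a matrix metalloproteinase, was at 0.795, 0.923, 1.56 and 1.42 CPM without and 2.02, 1.996, 2.87 and 2.28 CPM with stretch (0.96 ± 0.20, adjusted p = 0.00232, edgeR). Of the 35 tested NF-kappaB, chemokine and cytokine genes 19 were higher and 3 lower, with a median of 0.15. Ccl7 (0.56 ± 0.10), Cxcl12 (0.51 ± 0.073), the receptor Il1rl1 (0.54 ± 0.10) and the inhibitor Nfkbia (0.19 ± 0.049) rose, and Il11 fell (-0.47 ± 0.15).

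Flcn (chr11:59791408-59810016, minus strand), whose product folliculin takes part in nutrient sensing at the lysosome, was at 22.5, 22.9, 23.4 and 23.4 CPM in non-stretched and 37.6, 41.9, 41.4 and 45.7 CPM in stretched libraries, a log2 fold change of 0.85 ± 0.049 (adjusted p = 4.48e-07, edgeR). Bhlhe40, a repressor within the circadian clock, rose from 35.5 ± 2.06 to 55.4 ± 2.04 CPM (SD, n = 4), a change of 0.64 ± 0.041. Ngfr, the low-affinity neurotrophin receptor, rose by 0.65 ± 0.075, with all stretched libraries (14.3, 15.1, 17.4 and 18.7 CPM) above the non-stretched ones (10.7, 10.3, 10.1 and 10.6 CPM). Without stretched replicate 10 its change was 0.5798, just under the limit, and in B27 alone it was 0.49. The kinase gene Alpk2 (0.63 ± 0.051), the magnesium transporter gene Nipal1 (0.62 ± 0.068, 0.56 and under the limit without stretched replicate 7) and the zinc finger gene Zfand2a, known as a target of arsenite and heat (0.61 ± 0.032, adjusted p = 3.03e-07, edgeR), complete the rises outside the groups below.

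**Figure D2:**
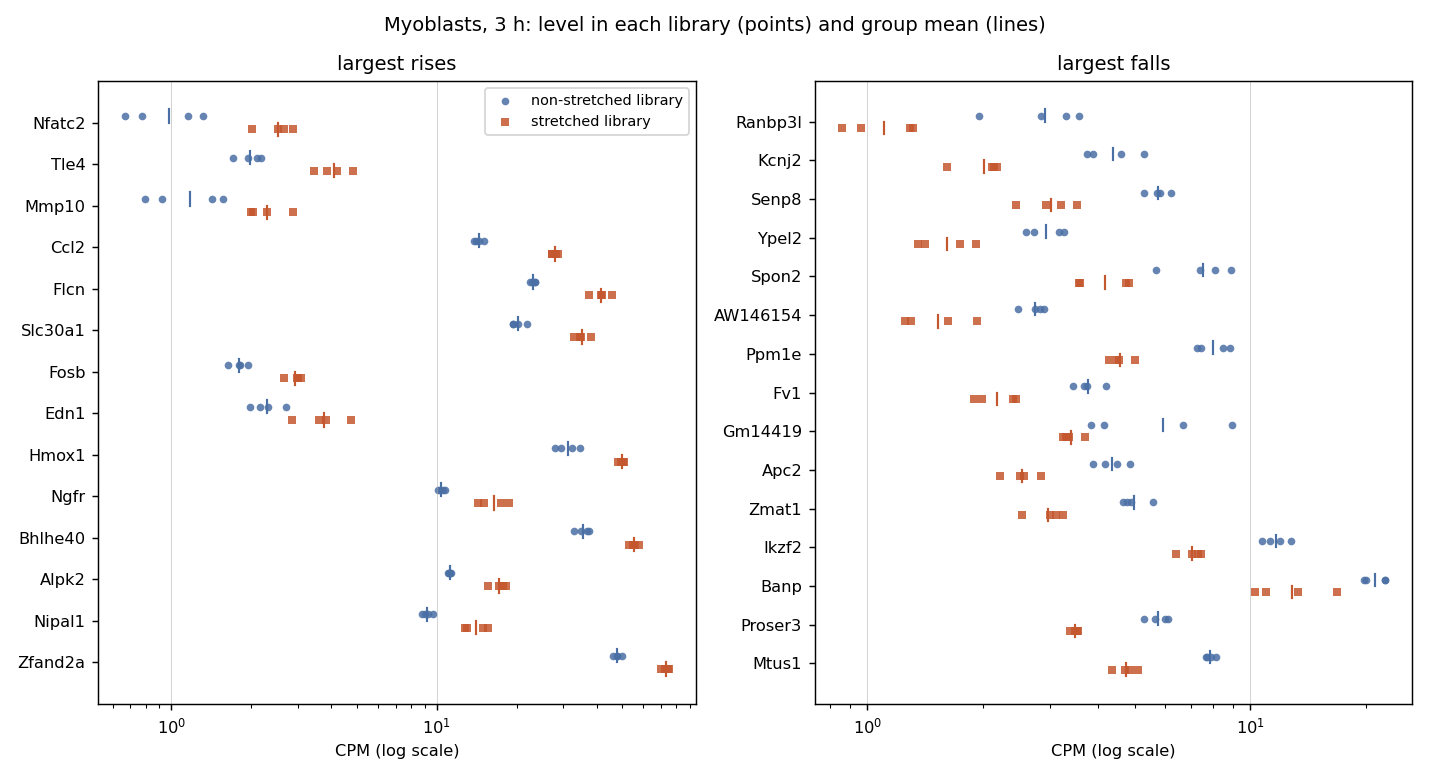
Level in CPM (log scale, x axis) of the largest rises (14 genes, left) and falls (15 genes, right) among called genes that average 100 counts or more and whose groups lie apart. Circles are the 4 non-stretched and squares the 4 stretched libraries, and vertical lines are the group means; for Nfatc2 the non-stretched libraries end at 1.31 CPM and the stretched ones begin at 2.02 CPM.

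The largest fall was that of Ranbp3l (chr15:8967949-9067335, plus strand), whose product exports Smad proteins of the BMP pathway from the nucleus. Its level was 3.57, 3.31, 2.84 and 1.96 CPM in non-stretched and 1.31, 1.29, 0.859 and 0.963 CPM in stretched libraries, and the log2 fold change was -1.39 ± 0.19 (adjusted p = 0.000143, edgeR). Kcnj2, the inward rectifier potassium channel Kir2.1 that sets the resting potential of muscle, was at 5.28, 4.597, 3.88 and 3.73 CPM without and 2.14, 2.18, 1.62 and 2.11 CPM with stretch (-1.12 ± 0.13, adjusted p = 4.08e-05, edgeR). In both genes every stretched library was below every non-stretched one, as their selection required. Among the 23 tested channel genes 5 were higher and 6 lower (21.7% and 26.1%, beside 16% and 15.8% of all tested genes). Kcnk2, which encodes the stretch-gated potassium channel TREK-1, was lower (-0.31 ± 0.051), while Kcnj12, the relative of Kcnj2, was higher (0.32 ± 0.10).

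Senp8, the protease that removes the ubiquitin-like protein Nedd8, was at 5.79, 6.19, 5.72 and 5.29 CPM without and 2.93, 3.52, 2.44 and 3.21 CPM with stretch (-0.93 ± 0.10, adjusted p = 3.01e-05, edgeR). Ppm1e, a phosphatase that acts on CaM kinases and AMPK, was at 7.26, 7.43, 8.83 and 8.46 CPM without and 4.28, 4.55, 4.48 and 5.002 CPM with stretch (-0.81 ± 0.079, adjusted p = 1.31e-05, edgeR). Ikzf2, the transcription factor Helios, was at 10.7, 12.8, 11.97 and 11.3 CPM without and 7.42, 7.05, 6.37 and 7.29 CPM with stretch (-0.73 ± 0.067, adjusted p = 8.3e-06, edgeR). Banp, a nuclear DNA-binding protein, was at 22.5, 22.5, 19.7 and 20.02 CPM without and 10.3, 13.3, 11 and 16.8 CPM with stretch (-0.73 ± 0.12, adjusted p = 0.000405, edgeR). In all 4 genes the groups were apart, as their selection required, but in B31 alone the change of Banp was -0.53, under the limit. Apc2, a relative of the Wnt antagonist Apc, had a log2 fold change of -0.78, the matrix protein gene Spon2 of -0.84, the retroviral restriction gene Fv1 of -0.79 and the microtubule-associated Mtus1 of -0.72. Ypel2 (-0.86), AW146154 (-0.83), Zmat1 (-0.74) and Proser3 (-0.73) fell as well. In B27 alone Spon2 and Ypel2 had changes of -0.45 and -0.53, under the limit, against -1.24 and -1.21 in B31 alone. Gm14419 is the least certain, since 96.4% of the 31-base words of its transcripts occur in other genes too; it was at 8.97, 3.83, 4.16 and 6.65 CPM without and 3.69, 3.301, 3.24 and 3.36 CPM with stretch, and without non-stretched replicate 7 its change was -0.52, under the limit. It did not pass in B27 alone or with all 24 myoblast libraries in 1 model (adjusted p = 0.0684 and 0.0818, edgeR).

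The 2 largest fitted changes belong to genes outside the count limit, chosen here after their values were seen. Gm20463, an antisense gene, had 0 counts in all non-stretched libraries and 0.3398, 0.1996, 0.578 and 0.208 CPM in the stretched ones. DESeq2 gave no adjusted p for Gm20463, so its call rests on edgeR. Gm20431 was at 0.0168 CPM in non-stretched replicate 8, at 0 in the other 3 without stretch and at 0.813, 0.537, 2.64 and 2.93 CPM with stretch, and 98.9% of its 31-base words are shared with other genes, so reads could be split among copies. The 2 upregulated genes with 10000 counts or more, also singled out afterwards, hold ribosomal RNA sequence: Rn18s-rs5 (log2 fold change 0.70 ± 0.23) and AY036118 (0.76 ± 0.24). Their groups overlapped, stretched replicate 8 was the highest library of both, and without it their changes were 0.37 and 0.37 (adjusted p = 0.106 and 0.061, edgeR). With all 24 myoblast libraries in 1 model the adjusted p were 0.358 and 0.359 (edgeR).

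The zinc exporter gene Slc30a1 and both metallothionein genes rose. Slc30a1 (chr1:191906767-191913247, plus strand) encodes ZnT1, which carries zinc out of the cell, and it was at 21.96, 19.4, 20.2 and 19.4 CPM in non-stretched and 38.2, 35.04, 34.5 and 32.8 CPM in stretched libraries. The lowest stretched library was well above the highest non-stretched one, a log2 fold change of 0.80 ± 0.051 (adjusted p = 7.92e-07, edgeR). The metallothioneins, small proteins that bind zinc and copper, rose with it: Mt1 from 78.3, 80.4, 85.1 and 92.2 to 104, 105, 116 and 108 CPM (0.36 ± 0.047, adjusted p = 9.83e-05, edgeR) and Mt2 from 63.3, 62.9, 64.9 and 67.2 to 83.3, 80.5, 90.9 and 85.4 CPM (0.40 ± 0.036, adjusted p = 8.71e-06, edgeR). Of the 16 zinc transporter and metallothionein genes tested, 7 were higher and 3 lower, with a median of 0.051.

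These 3 genes are textbook targets of the zinc-sensing factor MTF-1, which binds metal response elements, so their promoters are shown, from RefSeq on GRCm38.p6, each 300 bases ending 50 bases past the start of the gene. Capitals mark the core of the element, TGCACNC or TGCGCNC, on either strand, so that a match on the other strand reads in its reverse complement.
Slc30a1, chr1:191906531-191906830, plus strand: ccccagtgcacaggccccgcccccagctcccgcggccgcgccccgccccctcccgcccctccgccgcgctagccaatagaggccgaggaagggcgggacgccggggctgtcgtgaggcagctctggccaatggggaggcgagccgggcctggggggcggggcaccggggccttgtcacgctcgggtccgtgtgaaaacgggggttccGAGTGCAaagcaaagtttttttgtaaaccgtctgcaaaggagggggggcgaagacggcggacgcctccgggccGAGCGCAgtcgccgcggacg
Mt1, chr8:94178839-94179138, plus strand: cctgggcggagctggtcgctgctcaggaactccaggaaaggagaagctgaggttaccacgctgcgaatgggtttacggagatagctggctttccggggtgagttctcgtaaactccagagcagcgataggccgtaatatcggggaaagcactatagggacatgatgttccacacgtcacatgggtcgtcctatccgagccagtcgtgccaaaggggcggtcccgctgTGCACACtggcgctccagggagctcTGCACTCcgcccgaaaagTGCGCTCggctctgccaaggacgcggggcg
Mt2, chr8:94172368-94172667, plus strand: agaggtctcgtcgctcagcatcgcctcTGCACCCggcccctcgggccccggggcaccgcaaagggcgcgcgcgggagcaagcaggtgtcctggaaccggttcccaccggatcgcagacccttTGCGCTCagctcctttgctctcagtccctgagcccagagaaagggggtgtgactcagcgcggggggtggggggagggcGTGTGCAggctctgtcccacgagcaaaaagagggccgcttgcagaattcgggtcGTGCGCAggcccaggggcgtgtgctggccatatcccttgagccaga
The core occurred 2 times in the Slc30a1 window, 3 times in that of Mt1 and 4 times in that of Mt2. It was also present in 25.6% of all 27025 promoters, in 36.3% of the 9940 promoters of tested genes, 24.2% of the 33 of upregulated and 31.7% of the 126 of downregulated genes. The match is a description of the letters in these windows.

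Most genes of the antioxidant list, known targets of NRF2, rose as well. Hmox1, the inducible heme oxygenase, was at 29.4, 27.95, 32.3 and 34.7 CPM in non-stretched and 49.6, 50.5, 50.4 and 48.3 CPM in stretched libraries (0.68 ± 0.053, adjusted p = 3.24e-06, edgeR). In B31 alone its change was 0.56, under the limit. Both subunits of the enzyme that starts glutathione synthesis were higher, the catalytic Gclc at 67.7, 67.03, 70.3 and 67.7 against 99.5, 97.5, 96.1 and 92.8 CPM (0.50 ± 0.028, adjusted p = 3.17e-07, edgeR) and the modifier Gclm by 0.29 ± 0.032. Txnrd1, thioredoxin reductase (0.38 ± 0.025), and Srxn1, sulfiredoxin (0.34 ± 0.033), rose too. Of 23 tested members of the NRF2 list 14 were higher and 1 lower, with a median of 0.16.

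Immediate early genes were split at 3 h. Fosb, an AP-1 subunit, was at 1.94, 1.63, 1.82 and 1.79 CPM without and 2.999, 3.09, 2.97 and 2.66 CPM with 3 h of stretch (0.71 ± 0.10, adjusted p = 0.00015, edgeR). Egr1, an immediate early zinc finger factor, moved the other way, with 129, 131, 113 and 121 CPM in non-stretched and 86.5, 81.5, 78.2 and 72.99 CPM in stretched libraries (-0.63 ± 0.052, adjusted p = 4.75e-06, edgeR). In both genes the groups were apart, for Fosb as its selection required. Of 34 tested immediate early genes 16 were higher and 5 lower (median 0.09). Gadd45b (0.46 ± 0.055), Myc (0.32 ± 0.031), Fosl1 (0.29 ± 0.037), Nr4a1 (0.29 ± 0.052) and Junb (0.25 ± 0.044) rose by less than the limit, and Jun (-0.16 ± 0.039) and the antiproliferative Btg2 (-0.58 ± 0.05) fell. Btg2 was close to the limit and fell short of it when any of 4 libraries was left out (-0.58 to -0.56), or in B27 alone (-0.55). Phosphatases and Sprouty genes that dampen MAP kinases were 6 higher and 3 lower of 16, with Dusp5 (0.34 ± 0.029), Dusp4 (0.29 ± 0.031) and Spry4 (0.21 ± 0.046) up and Dusp8 (-0.41 ± 0.039) down. Growth factor genes were 8 higher and 2 lower of 23, with Bdnf (0.33 ± 0.039), Gdnf (0.32 ± 0.046) and Ereg (0.29 ± 0.055) up and Hgf (-0.32 ± 0.066) and Tgfa (-0.40 ± 0.11) down.

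Genes of mechanical signaling changed by small steps. In the list of CCN genes and YAP and TEAD targets 13 of 31 were higher and 2 lower, led by Amotl2, an angiomotin that binds YAP (0.47 ± 0.033), Wisp1 (0.41 ± 0.025) and the kinase gene Lats2 (0.23 ± 0.025). Cyr61 (0.13 ± 0.04) and Ankrd1 (0.072 ± 0.023), often used as readouts of YAP, rose by small amounts, and the libraries of Cyr61 overlapped. Among 37 SRF and actin genes 9 were higher and 4 lower, with Srf itself (0.15 ± 0.032) and Fhl2 (0.27 ± 0.033) up and Lmod1 (-0.50 ± 0.17) down. Adhesion genes were 7 higher and 1 lower of 30, among them syndecan-4, Sdc4 (0.49 ± 0.039), and Bcar1, a scaffold that is unfolded by force (0.28 ± 0.044). Matrix genes were 6 higher and 6 lower of 40 (15% each), near the 16% and 15.8% of all tested genes. Among them Timp3 (0.37 ± 0.041) and Thbs1 (0.28 ± 0.034) rose, and Col6a1 (-0.48 ± 0.077), Col6a2 (-0.51 ± 0.084) and Col1a1 (-0.26 ± 0.054) fell. Tubulin genes were 8 higher and 0 lower of 12, with a median of 0.11.

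The TGF-beta and BMP list stood at 19 higher and 2 lower of 41 (median 0.10). Among its members, Id1, a repressor of myogenic factors, was at 59, 59.1, 52 and 56.5 CPM without and 76.7, 83.1, 72.2 and 72.2 CPM with stretch (0.43 ± 0.049, adjusted p = 3.8e-05, edgeR), and Id2 (0.45 ± 0.054) and Id3 (0.33 ± 0.059) rose with it. The inhibitory Smad7 was at 28.5, 29.1, 24.6 and 26.3 CPM without and 39.4, 42.7, 37.5 and 37.03 CPM with stretch (0.53 ± 0.055, adjusted p = 1.87e-05, edgeR), and Smad6 (0.25 ± 0.082), Smad9 (0.41 ± 0.10) and the secreted antagonists Nog (0.38 ± 0.12) and Fst (0.34 ± 0.057) were higher. The libraries of Smad6 and Nog overlapped. The ligand gene Tgfb3 fell (-0.24 ± 0.03). Notch genes were 2 higher and 5 lower of 23, with the target Heyl (-0.83 ± 0.17), the receptor Notch3 (-0.42 ± 0.061) and Nrarp (-0.28 ± 0.092) down. Wnt genes were 11 higher and 3 lower of 37, with the receptor Fzd6 (0.37 ± 0.038), Lef1 (0.33 ± 0.043) and the ligand Wnt11 (0.64 ± 0.16) up and Fzd4 (-0.41 ± 0.10) and the antagonist Dkk2 (-0.44 ± 0.028, adjusted p = 7.92e-07, edgeR) down.

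Most genes of ribosome production rose, in small steps. Of 40 ribosome biogenesis genes 30 were higher and 0 lower (75% against 16% and 15.8% of all tested genes), with a median log2 fold change of 0.14 beside -0.0074 over all genes. Nucleolin, Ncl, was at 1438 ± 20.3 CPM without and 1695 ± 33.7 CPM with stretch (SD, n = 4; 0.24 ± 0.023), Gnl3, nucleostemin, rose by 0.31 ± 0.029 and Wdr43 by 0.33 ± 0.023. Ribosomal protein genes were 48 higher and 0 lower of 74, and all 74 had a positive change with a median of 0.079. None of the lists was set beside genes of like level. Among all genes of 10000 counts or more the median was 0.062, and 91.7% of those past the adjusted p were higher. Cell cycle genes were 18 higher and 4 lower of 49, with the licensing factor Cdt1 at 0.36 ± 0.04. Genes of the ATF4 and amino acid response were 15 higher and 4 lower of 32: Atf4 (0.24 ± 0.023), the arginine transporter Slc7a1 (0.33 ± 0.029) and Ppp1r15a (0.33 ± 0.068) rose, and Trib3 (-0.34 ± 0.11) and Vldlr (-0.60 ± 0.17) fell. Sterol genes were 11 higher and 2 lower of 30, with Insig1, which holds back sterol synthesis, at 0.46 ± 0.055. The unfolded protein list had 6 higher and 3 lower of 27, with Hspa5 at 0.11 ± 0.023, and the heat shock list 9 higher and 2 lower of 25, with Hspa8 at 0.13 ± 0.022 and Hsph1, which did not pass, at -0.075 ± 0.037 (adjusted p = 0.148, edgeR). Both cold-inducible RNA-binding genes were higher, Cirbp at 23, 23.9, 23.04 and 24.01 against 33.4, 30.4, 32.8 and 30.7 CPM (0.44 ± 0.038, adjusted p = 6.89e-06, edgeR) and Rbm3 by 0.16 ± 0.036. With all 24 myoblast libraries in 1 model Rbm3, Hspa5 and Hspa8 no longer passed (adjusted p = 0.0726, 0.608 and 0.0851, edgeR).

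SR proteins and their kinases were 8 higher and 2 lower of 18, with Srsf5 (0.41 ± 0.034) and the kinases Clk1 (0.30 ± 0.038) and Clk4 (0.35 ± 0.048). Other splicing regulators were 19 higher and 5 lower of 37, with Hnrnpdl up (0.38 ± 0.032) and the muscle factor Rbm24 down (-0.61 ± 0.21, overlapping libraries). Long noncoding RNA genes were 3 higher and 4 lower of 15, with Snhg3 at 0.27 ± 0.072. Kruppel-like factors were 8 higher and 1 lower of 13. Histone genes were 9 higher and 2 lower of 63 (14.3% and 3.2%, beside 16% and 15.8% of all tested genes). Of them 3, Hist1h2bl (0.80 ± 0.22), Hist1h3f (0.71 ± 0.19) and Hist1h2bg (0.69 ± 0.20), were called up at under 1 CPM in a family of near-identical copies.

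Interferon-related genes leaned downward. Of 21 tested 0 were higher and 9 lower, with a median of -0.24: Ddx58, the RNA sensor RIG-I, was at 5.99 ± 0.321 against 4.03 ± 0.3803 CPM (SD, n = 4; -0.57 ± 0.08, adjusted p = 0.00018, edgeR), Stat2, a transducer of interferon signals, fell too (-0.36 ± 0.067), and Oasl2 (-0.81 ± 0.29) and Tap1 (-0.65 ± 0.23) lay under 1 CPM and lost their calls without any of 6 libraries each. FoxO factors and atrophy genes were 4 higher and 12 lower of 23 (median -0.15), with the pro-apoptotic Bmf (-0.84 ± 0.16), Ccng2 (-0.56 ± 0.049, adjusted p = 7.02e-06, edgeR) and Pik3ip1 (-0.61 ± 0.21, overlapping libraries). Glucose-sensing genes were 1 higher and 4 lower of 12, among them Pdk2 (-0.49 ± 0.094) and Arrdc3 (-0.43 ± 0.067). Zinc finger (Zfp) genes were 30 higher and 80 lower of 301 (median -0.088), with Zfp808 (-0.65 ± 0.11), Zfp3 (-0.59 ± 0.11) and Zfp677 (-0.62 ± 0.20) called down, and Zbtb genes 5 higher and 12 lower of 37, with Zbtb4 at -0.51 ± 0.033 (adjusted p = 8.76e-07, edgeR). Hox genes were 1 higher and 4 lower of 21, and fatty acid and LXR genes 1 higher and 4 lower of 26. In both of these lists the share lower was near the 15.8% of all tested genes. Their lean came from a share higher that was well under the 16% of all tested genes. A downward lean was also found by level alone. Among all genes of 100 to 1000 counts, 32.09% passed the adjusted p, and 18% of these were higher. The lists of this paragraph were not matched for level.

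The remaining lists were mixed. Circadian genes were 7 higher and 5 lower of 20, with Per2 up (0.38 ± 0.054) and Per3 down (-0.29 ± 0.057). Glycolysis and hypoxia genes were 5 higher and 7 lower of 33 (15.2% and 21.2%, beside 16% and 15.8% of all tested genes). Among them Pfkfb3 was up (0.32 ± 0.05) and Ak4 down (-0.48 ± 0.066). Genes of p53 targets were 4 higher and 4 lower of 25 (16% each, near the 16% and 15.8% of all tested genes). RGS proteins and G protein-coupled receptors were 7 higher and 8 lower of 34 (20.6% and 23.5%, beside 16% and 15.8% of all tested genes). Among them Rgs16 (0.58 ± 0.065) and the bradykinin receptor Bdkrb2 (0.47 ± 0.14) were up and the endothelin receptor Ednra (-0.38 ± 0.13) was down. Among the 10 myoblast markers 1 was higher and 1, Msc (-0.30 ± 0.078), lower. The genes of the mitochondrial genome were not analysed here.

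**Figure D3:**
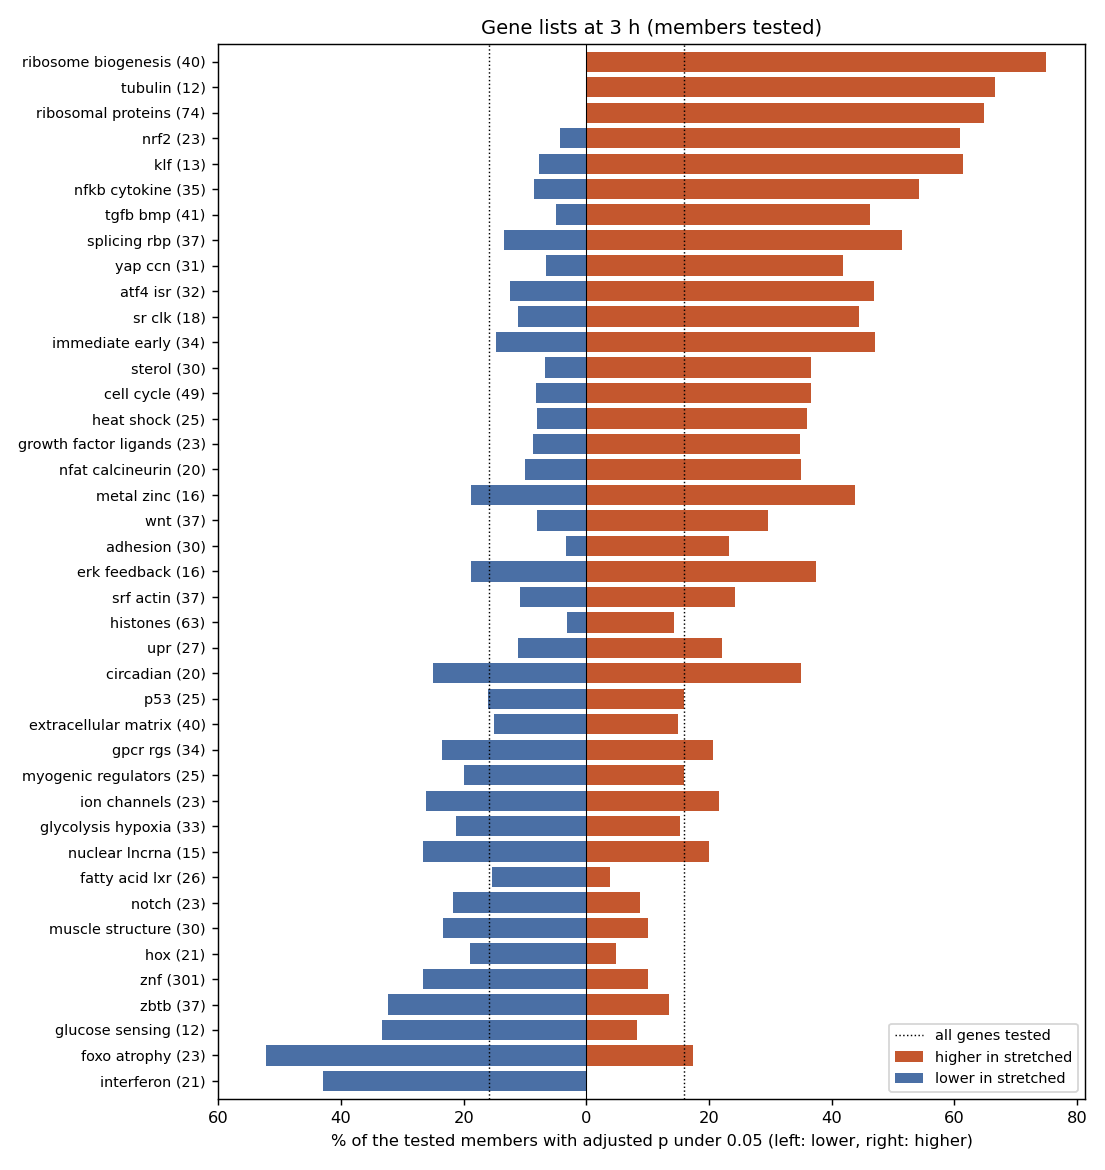
Share of the tested members of each list that were higher (orange, right) or lower (blue, left) in stretched cells at an adjusted p under 0.05, in %, for the lists with at least 10 tested members (number in brackets); dotted lines are the 16% and 15.8% of all tested genes. Ribosome biogenesis (75% higher) heads the plot and interferon genes (42.9% lower, 0 higher) close it. The shares were not matched for level.

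Muscle differentiation genes were at low levels, and their change was uneven between experiments. Myogenin, Myog, the factor that starts differentiation, was at 1.96, 1.29, 3.04 and 3.29 CPM in non-stretched libraries 7, 8, 9 and 10 and at 1.42, 1.32, 1.26 and 1.397 CPM in the stretched ones. The non-stretched libraries of experiment B31 stood above all others, and replicate 8 of B27 lay within the stretched range. The pooled change was -0.82 ± 0.23 (adjusted p = 0.0167, edgeR), against -0.23 in B27 and -1.26 in B31, a difference between experiments that did not pass (adjusted p = 0.298, edgeR), and without non-stretched replicate 9 or 10 the call was lost (adjusted p = 0.0507 and 0.0656, edgeR). Mybph, a thick filament gene, showed the same layout at up to 1.10 CPM (-0.18 and -1.33, pooled -0.82 ± 0.28). Of 30 muscle structure genes 3 were higher and 7 lower, with a median of 0.029 in B27 and -0.70 in B31. Myl1 (-0.74 ± 0.19), Ryr1 (-0.44 ± 0.13) and Tnni2 (-0.50 ± 0.17) were lower and Myl4 was higher (0.57 ± 0.17). Of the 25 myogenic regulators 4 were higher and 5 lower (16% and 20%, beside 16% and 15.8% of all tested genes). Mef2a was up (0.23 ± 0.03) and Six5 down (-0.59 ± 0.11). The summed level of the differentiation markers, given above, also spread more widely among the non-stretched libraries, and its part in these values was not tested.

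Targets of the aryl hydrocarbon receptor depended on the experiment too, with the change in B27 among the myoblasts at 3 h. The aryl hydrocarbon receptor, a sensor of planar aromatic compounds, switches on Cyp1a1, Cyp1b1 and its own repressor Ahrr. Cyp1a1 was at 13.4, 12.9, 2.56 and 2.09 CPM in the non-stretched and 1.73, 1.72, 2.64 and 1.93 CPM in the stretched libraries, Cyp1b1 at 184, 186, 82.3 and 79.03 and 79.2, 75.1, 94.5 and 82.98 CPM, and Ahrr at 19.3, 17.3, 10.8 and 9.96 and 9.35, 8.64, 10.7 and 8.44 CPM. In each the 2 non-stretched libraries of B27 stood alone, and the other 6 libraries lay together. All 3 genes were called down in the pooled fit (-1.96 ± 0.51, -0.68 ± 0.24 and -0.63 ± 0.18), but the call of Cyp1b1 was lost in all fits without 1 library except those without non-stretched replicate 9 or 10 (adjusted p = 0.0609 to 0.149, edgeR). That of Ahrr was lost without non-stretched replicate 7 (-0.45, under the limit) or 8 (adjusted p = 0.0554, edgeR). With all 24 myoblast libraries in 1 model the calls of Cyp1a1, Cyp1b1 and Ahrr were all lost (adjusted p = 0.0933, 0.198 and 0.146, edgeR). Within B27 the log2 fold changes were -2.93, -1.26 and -1.02, and within B31 -0.011, 0.14 and -0.11, so that Cyp1b1 turned sign. The difference between experiments passed the test in each (adjusted p = 3.28e-05, 1.74e-06 and 0.035, edgeR), as in 14 of all 14813 genes (0.0945%). These 3 are the only ones among the 253 calls. Tiparp, a further known target of the receptor picked after its values were seen, had a log2 fold change of -0.28 in B27 and of 0.22 in B31 (difference adjusted p = 0.000314, edgeR), and the receptor gene Ahr was higher in the pooled fit (0.23 ± 0.052). In B31 alone the change of Ahr was 0.085 and did not pass (adjusted p = 0.291, edgeR). Of the 7 genes of the list 1 was higher and 3 lower in myoblasts at 3 h. Differentiated cells at 3 h, which have libraries and tags of their own, had 0 of the list higher and 3 lower, with a median of -0.56.

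The promoters of the 3 called genes are shown because they moved together; capitals mark GCGTG, the core of the xenobiotic response element that the receptor binds, on either strand, in RefSeq windows of GRCm38.p6.
Cyp1a1, chr9:57697363-57697662, plus strand: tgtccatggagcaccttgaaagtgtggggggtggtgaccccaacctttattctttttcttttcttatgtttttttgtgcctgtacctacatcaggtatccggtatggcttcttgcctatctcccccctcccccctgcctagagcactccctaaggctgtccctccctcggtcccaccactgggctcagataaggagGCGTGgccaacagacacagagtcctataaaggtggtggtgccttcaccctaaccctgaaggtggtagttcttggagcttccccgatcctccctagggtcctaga
Cyp1b1, chr17:79715012-79715311, minus strand: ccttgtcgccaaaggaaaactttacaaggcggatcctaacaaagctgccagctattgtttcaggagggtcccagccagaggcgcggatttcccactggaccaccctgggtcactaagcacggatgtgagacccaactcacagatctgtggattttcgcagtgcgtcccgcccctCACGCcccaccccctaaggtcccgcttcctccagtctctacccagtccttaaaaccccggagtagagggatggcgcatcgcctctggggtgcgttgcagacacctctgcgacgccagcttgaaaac
Ahrr, chr13:74292282-74292581, minus strand: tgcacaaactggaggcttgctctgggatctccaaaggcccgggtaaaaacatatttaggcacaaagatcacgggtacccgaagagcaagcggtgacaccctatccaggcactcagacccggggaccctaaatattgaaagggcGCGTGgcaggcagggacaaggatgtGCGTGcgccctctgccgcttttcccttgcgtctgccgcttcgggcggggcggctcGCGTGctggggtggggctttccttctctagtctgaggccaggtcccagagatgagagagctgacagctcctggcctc
The windows held 1, 1 and 3 copies of the core, which was also present in 32.5% of all promoters, 52.1% of the promoters of tested genes, 42.4% of those of upregulated and 49.2% of those of downregulated genes. In all 5 short motifs were searched in these windows. The antioxidant element TGACNNNGC was present in 12.1% of upregulated, 14.3% of downregulated and 14.8% of tested genes, the AP-1 site TGANTCA in 9.09%, 4.76% and 5.0%, and the cyclic AMP element TGACGTCA in 6.06%, 2.38% and 3.36%.

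**Figure D4:**
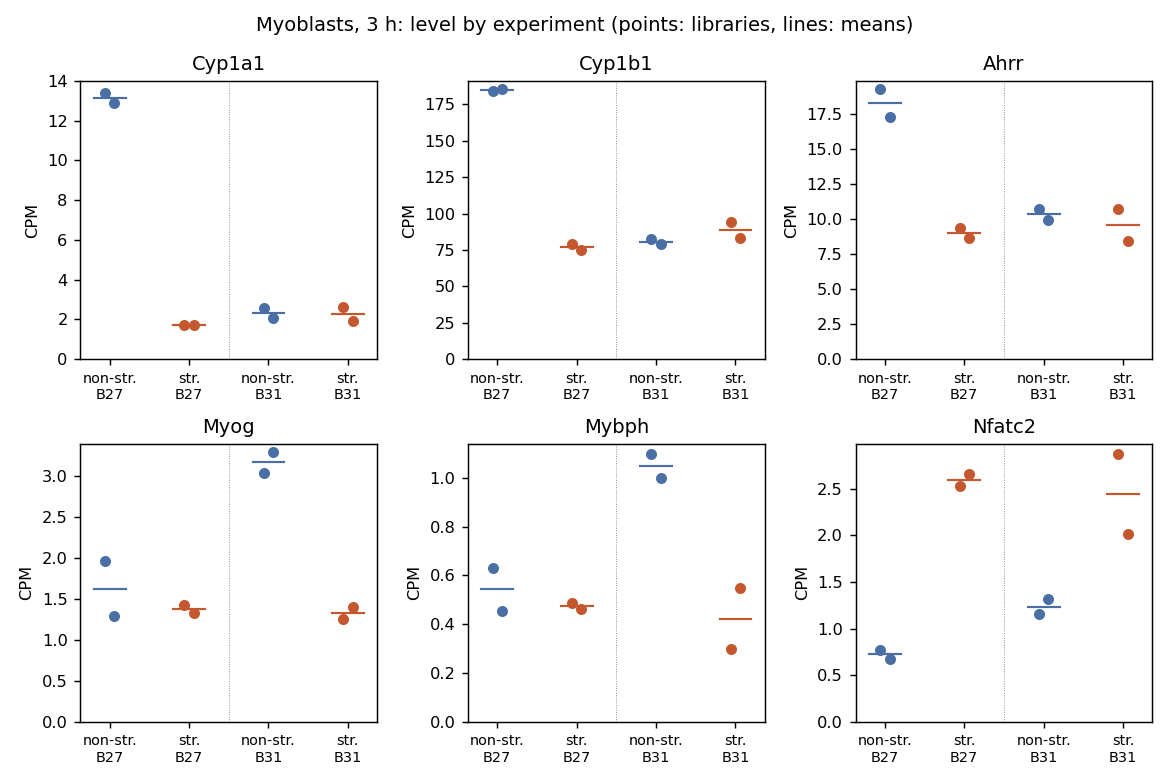
Level in CPM (y axis, from 0) of 6 genes in the non-stretched (blue) and stretched (orange) libraries of experiment B27 (left of the dotted line) and B31 (right); points are libraries and lines the means of 2. Cyp1a1, Cyp1b1 and Ahrr are high only in the non-stretched libraries of B27, Myog and Mybph are highest in those of B31, and Nfatc2 is higher with stretch in both.

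Several of the smaller changes named above lay close to the limits and were lost in fits without 1 library. The adjusted p of Nrarp passed 0.05 when any of 6 libraries was left out, reaching 0.082 (edgeR). Leaving out any of 5 libraries did the same for Ednra, Il11, Lmod1, Mybph, Nog, Pik3ip1, Rbm24, Ryr1, Tnni2 and Zfp677, with the highest value, 0.139, for Tnni2, and any of 4 for Ankrd1, Cyr61, Kcnj12, Myl4, Smad6 and Trib3, with the highest value, 0.113, for Trib3. Bdkrb2 was lost without any of 3 libraries (up to 0.0692) and Hist1h2bg without stretched replicate 8 (0.0642). Under the fold limit, but past the adjusted p, lay Myl1 without non-stretched replicate 10 (-0.57), Wnt11 without stretched replicate 8 (0.57) and Zfp808 without non-stretched replicate 7 (-0.56), and likewise Vldlr and Zfp3 without any of 3 libraries and Six5 without any of 4.

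By an edgeR model with an effect for each experiment, all 68 upregulated genes and 184 of the 185 downregulated genes had the same sign in both (183 of the 185 by differences of mean log2 CPM), which the pooled call favors. Of these, 48 and 96 reached the limit in both. In B27 alone the calls of Heyl, Wnt11, Myog, Mybph, Myl1, Vldlr, Bmf, Pik3ip1, Rbm24, Oasl2, Tap1, Hist1h2bl, Hist1h3f, Hist1h2bg and Zfp677 were lost by the adjusted p (0.0532 for Hist1h3f to 0.96 for Pik3ip1, edgeR) and that of Six5 by the limit (-0.58). In B31 alone those of Wnt11, Oasl2, Tap1, Hist1h2bl, Hist1h3f and Hist1h2bg were lost by the adjusted p (0.0507 for Wnt11 to 0.325 for Hist1h3f, edgeR) and that of Zfp3 by the limit (-0.57). Among smaller changes, Tgfa, Ankrd1, Lmod1, Kcnj12, Smad6, Nrarp, Tnni2, Myl4 and Bdkrb2 passed in neither experiment alone. Spry4, Cyr61, Srf, Nfatc4, Nog, Fzd4, Ryr1, Pdk2, Il1rl1, Il11, Nfkbia and Ednra did not pass in B27 alone. Jun, Smad9, Hspa5, Ppp1r15a and Ahr did not pass in B31 alone. With all 24 myoblast libraries in 1 model the adjusted p passed 0.05 for Mybph (0.108), Vldlr (0.0995), Hist1h2bl (0.0624), Hist1h3f (0.0601) and, among smaller changes, Ankrd1, Smad6, Tnni2, Trib3 and Snhg3 (edgeR).

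Most of the genes called at 3 h were not called at the other times. Of the 68 upregulated genes 6 were also up at 1 h and 6 at 6 h, or 8.82% each, which is 15.8% of the 38 up at 1 h and 2.99% of the 201 up at 6 h. Of the 185 downregulated genes 12 (6.49%) were down at 1 h and 8 (4.32%) at 6 h, or 8.05% of 149 and 6.50% of 123. Among those measured at 1 h, 45 of 64 upregulated and 144 of 184 downregulated genes had the same sign there (medians 0.17 and -0.18), and at 6 h 31 of 63 and 100 of 178 (-0.013 and -0.072). The share of tested genes called was 0.254% up and 0.997% down at 1 h, and 1.35% and 0.823% at 6 h. In differentiated cells at 3 h, 13 of the upregulated (19.1%, and 9.42% of the 138 up there) and 33 of the downregulated genes (17.8%, and 28.7% of the 115 down there) were called the same way, beside 0.890% and 0.741% of all genes tested. Among those measured there, 45 of 55 upregulated and 151 of 164 downregulated genes had the same sign, with median log2 fold changes of 0.43 and -0.35.

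Testing the difference itself, the effect of stretch at 3 h differed from that at 1 h in 1712 genes (10.9% of 15684), from that at 6 h in 4159 (26.5%) and from that in differentiated cells in 291 (1.79% of 16252). The last count was 187, 186 and 174 without stretched replicate 7, 8 and 9. Of the 253 called genes 77 differed from 1 h, 116 from 6 h, 59 from both and 17 from differentiated cells. The called genes were chosen by the 3 h effect, so these counts are a description.

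Immediate early genes were among those with the smallest p for the difference from 1 h. Egr1 had a log2 fold change of 1.396 ± 0.035 at 1 h and -0.63 ± 0.052 at 3 h, a difference of -2.03 ± 0.081 (adjusted p = 1.47e-14, edgeR). Dusp1, a MAP kinase phosphatase, went from 0.98 to -0.14, Cyr61 from 0.81 to 0.13, the kinase gene Sgk1 from 0.91 to 0.19 and Csrnp1 from 0.86 to -0.13. Fosb was at 2.09 ± 0.14 at 1 h. In the other direction, Gadd45b went from -0.58 ± 0.066 at 1 h to 0.46 ± 0.055 at 3 h (difference adjusted p = 7.67e-09, edgeR), and the zinc finger genes Zfp866 and Zfp87 fell at 1 h (-1.51 and -0.93), with -0.051 and 0.074 at 3 h, which did not pass (adjusted p = 0.432 and 0.295, edgeR). Slc30a1 stood at -0.019 after 1 h, 0.80 after 3 h and -0.13 after 6 h, and the effect at 3 h differed from both (adjusted p = 6.68e-09 and 1.37e-09, edgeR). Flcn was at -0.14, 0.85 and 0.70, so that its rise at 3 h was still present at 6 h.

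The 5 genes with the smallest p for an effect above that at 6 h were Slc30a1, Mgea5, the enzyme that removes O-GlcNAc (0.48 against -0.50), Amotl2 (0.47 against -0.057), the transcription factor Ets1 (0.44 against -0.11) and Gclc (0.50 against -0.25). Madd, Narf, Klhl20, Map9 and 4933404O12Rik were lower with stretch at 3 h (-0.33, -0.39, -0.39, -0.50 and -0.53) and higher at 6 h (0.30, 0.42, 0.20, 0.39 and 0.17). Ppm1e and Banp, among the largest falls, turned in the same way. Ppm1e had 0.19 ± 0.10 after 1 h, -0.81 ± 0.079 after 3 h and 0.67 ± 0.082 after 6 h, and Banp had 0.22 ± 0.062, -0.73 ± 0.12 and 0.91 ± 0.11. Ranbp3l and Kcnj2 were already down at 1 h (-1.06 ± 0.21 and -0.98 ± 0.13).

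Against differentiated cells, Flcn rose more in myoblasts (0.85 against 0.22, adjusted p = 0.000141, edgeR), as did Klhl21 (0.52 against 0.15) and Zfand2a (0.61 against 0.27). The Wnt receptor Fzd1 and the phosphodiesterase Pde4b were higher in myoblasts (0.13 and 0.24) and lower in differentiated cells (-0.17 and -0.17). Sema4c was lower in myoblasts (-0.23) and higher in differentiated cells (0.23), and Utp14b rose less in myoblasts (0.18 against 0.74). The phosphatase regulator Ppp1r10 (-0.084 against 0.28), Slc25a29 (-0.0059 against 0.54) and Sox11 (-0.049 against 0.46) rose in differentiated cells, and in myoblasts the last 2 did not pass the test (adjusted p = 0.952 and 0.335, edgeR). Nfatc2 and Slc30a1 rose in both, by 1.38 ± 0.26 and 0.88 ± 0.053 in differentiated cells against 1.37 ± 0.19 and 0.80 ± 0.051 in myoblasts, and the differences were -0.0074 ± 0.31 and -0.076 ± 0.081 (adjusted p = 1 and 0.754, edgeR).

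**Figure D5:**
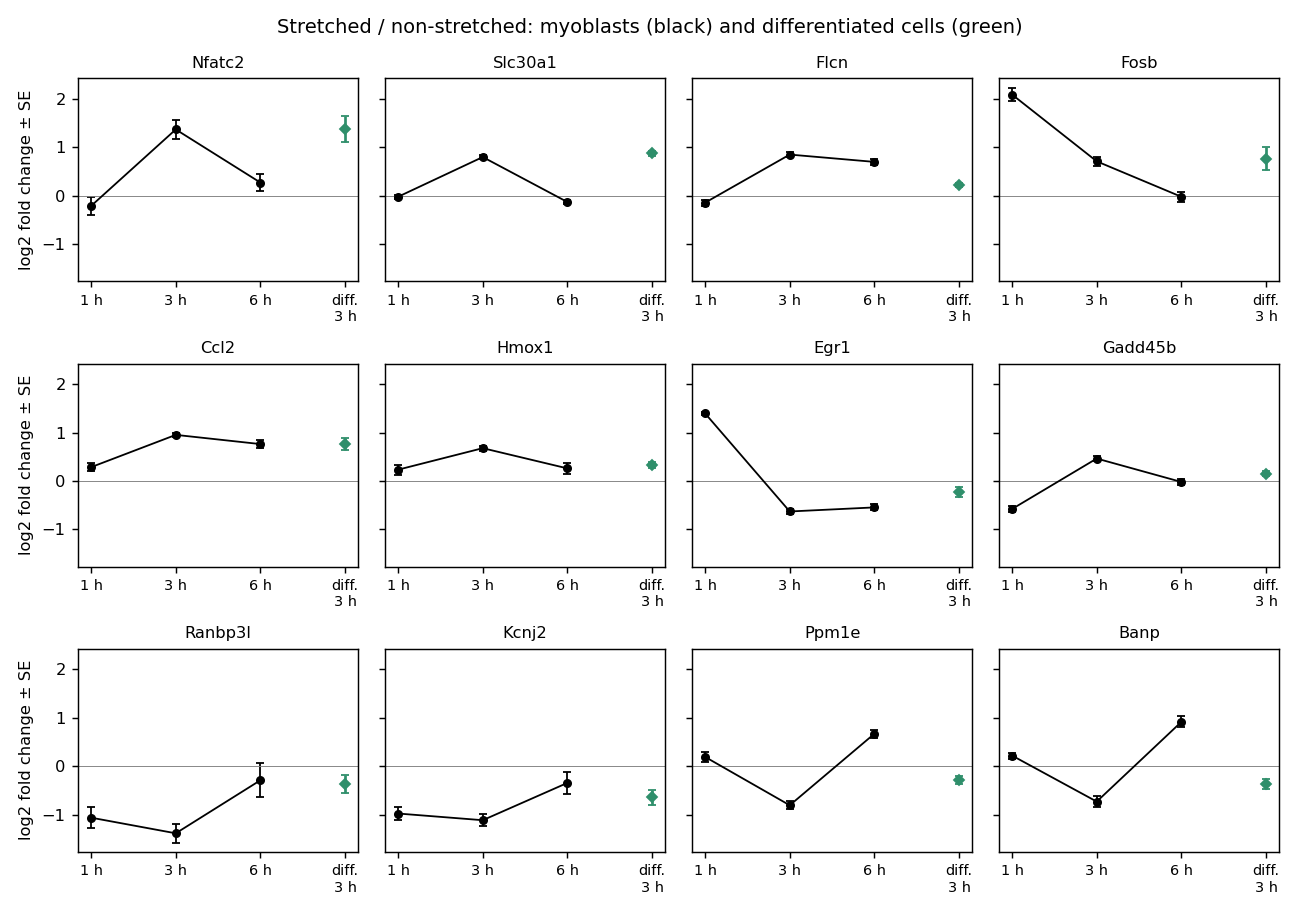
Log2 fold change, stretched over non-stretched, with its SE (y axis) of 12 genes in myoblasts at 1 h, 3 h and 6 h (black) and in differentiated cells at 3 h (green); each point compares 4 with 4 libraries. Slc30a1 is at 0.80 at 3 h between -0.019 at 1 h and -0.13 at 6 h, Egr1 goes from 1.396 at 1 h to -0.63, and Ppm1e and Banp are lowest at 3 h.

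By kind of gene, of the upregulated genes 63.2% were protein coding and the median gene length was 7889 bases, against 80.5% and 18394.5 bases for the downregulated genes and 82.2% and 19393.5 bases for all tested genes (GENCODE vM21). At 100 counts or more on average, the 20 upregulated genes had a median length of 10614 bases and the 62 downregulated ones 22309 bases, against 23655.5 bases for all. No test was made of these medians.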

How the data were processed

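RNA from C2C12 myoblasts was sequenced by the authors as stranded poly(A) libraries, paired end; the labels name the molecule nuclear RNA, and the methods describe no isolation of nuclei. Per the labels and methods, reads were processed with STAR and Salmon on mm10 and with DESeq2. The deposited counts are whole-number counts per gene symbol, not normalized by the authors, in 1 table for the 24 myoblast libraries and 1 for differentiated cells, which were fitted together only for the test between stages. Columns were matched to samples by title, and 0 columns of per-sample values were left out.

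Counts of the 8 libraries of 3 h were filtered with filterByExpr, scaled by TMM and tested with edgeR 4.0.16 (R 4.3.3) by its quasi-likelihood test, 2-sided, with Benjamini-Hochberg adjustment. A gene passed the test at an adjusted p under 0.05 and was called when its log2 fold change was also at least 0.58 in size. SE is the size of the log2 fold change over the root of F. Differences between times, stages and experiments were interaction terms. Genes were named as the 15 largest rises and falls among calls that average 100 counts or more and whose groups lie apart, as list members, as the 5 clearest of each interaction in each direction, or as said beside them; 3 genes that these rules take in are not reported here. The comparison, the lists and the tests were chosen with earlier results of these data known. Alternatives were DESeq2 1.42.0, RLE factors, 2 other filters, covariates, glmTreat, thinning, all 24 myoblast libraries in 1 model, single experiments and leaving out each library. The edgeR fit was tested on simulated data of these libraries: of 195 genes changed by 0.58 it found 80.0% among 14667 genes by the adjusted p, with 10 false calls. The simulated data held fewer changed genes than passed here and no effect of experiment. The limit on the fold change was not applied, so the share does not hold for the calls. Gene lengths and 31-base words came from GENCODE vM21 (95.2% of symbols matched) and promoters from RefSeq (67.1% of tested genes matched). Total counts, 48447318 to 68967899 a library, set the counting error, which is largest for genes under 100 counts.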

Additional observations from a re-analysis of the deposited data

Results flagged for a closer look

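Within a group of 4 libraries, 1 library stood apart from the other 3 by Dixon's criterion in 12 of 311 groups examined (3.86%), where chance gives about 1 in 20. Among stretched libraries these were Kcnj2 in replicate 9 (1.62 CPM, the others 2.11 to 2.18), Dusp4 in replicate 7 (248 CPM, the others 269 to 271), Ankrd1 in replicate 10 (515 CPM, the others 492 to 495), Nfatc4 in replicate 10 (2.34 CPM, the others 3.30 to 3.42), Snhg3 in replicate 7 (6.93 CPM, the others 8.24 to 8.41). Among non-stretched libraries these were Nfatc1 in replicate 9 (29.0 CPM, the others 26.6 to 26.9), Notch3 in replicate 7 (62.4 CPM, the others 64.4 to 64.6), Bmf in replicate 8 (0.906 CPM, the others 0.998 to 0.999), Ccng2 in replicate 7 (30.4 CPM, the others 28.2 to 28.3), Per2 in replicate 10 (6.12 CPM, the others 5.90 to 5.91), Rgs16 in replicate 9 (11.4 CPM, the others 10.7 to 10.8), Gm20431 in replicate 8 (0.0168 CPM, the others all 0). Of these, Kcnj2, Bmf and Gm20431 are called genes.

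Among the 29 genes of the largest rises and falls plotted above, the effect of stretch at 3 h differed from that at 1 h, by a test of the difference in edgeR, in 20 genes. The log2 effect at 3 h was above that at 1 h for Nfatc2 (1.57), Tle4 (0.93), Ccl2 (0.66), Flcn (0.99), Slc30a1 (0.81), Ngfr (0.44), Bhlhe40 (0.55), Alpk2 (0.77), Nipal1 (0.48) and Zfand2a (0.37). It was below for Fosb (-1.38), Senp8 (-0.74), AW146154 (-0.62), Ppm1e (-1.004), Apc2 (-1.02), Zmat1 (-0.49), Ikzf2 (-0.63), Banp (-0.95), Proser3 (-0.67) and Mtus1 (-0.67). Against 6 h the difference passed in 21 genes. It was positive for Nfatc2 (1.09), Tle4 (1.00), Slc30a1 (0.92), Fosb (0.73), Edn1 (1.08), Hmox1 (0.41), Bhlhe40 (0.37), Alpk2 (0.75) and Nipal1 (0.86), and negative for Ngfr (-0.66), Kcnj2 (-0.78), Senp8 (-1.09), Ypel2 (-0.78), AW146154 (-1.06), Ppm1e (-1.48), Apc2 (-1.35), Zmat1 (-0.90), Ikzf2 (-0.82), Banp (-1.65), Proser3 (-0.77) and Mtus1 (-0.44). Against differentiated cells at 3 h it was positive for Flcn (0.63), Hmox1 (0.36) and Zfand2a (0.34) and negative for Ppm1e (-0.52). These genes were chosen by their effect at 3 h, which favors a larger effect there.

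The effect at 3 h differed between the experiments, B27 minus B31 on the log2 scale, for Cyp1a1 (-2.92), Cyp1b1 (-1.40), Ahrr (-0.92) and Tiparp (-0.49), each by a test of the difference in edgeR. The level without stretch differed too, by 2.505 for Cyp1a1 between the non-stretched libraries of B27 and B31. What moved the non-stretched libraries of B27 was not tested.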

How the results depend on the processing

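The number of upregulated genes, 68, was 45 with DESeq2 and 105 without a filter on low counts. Nrarp, Tnni2, Il11, Tap1, Cyp1b1, Rn18s-rs5 and AY036118 did not pass with DESeq2 (adjusted p = 0.0574 for Il11 to 0.106 for Cyp1b1, DESeq2). It gave no adjusted p for Gm20463 and Oasl2. Without a limit on the fold change 2373 genes were higher and 2346 lower, and glmTreat left 3 and 0, both by the construction of these tests. The number of downregulated genes, 185, was 101 in experiment B27 alone. The share of calls that were up, 26.9%, was 37.7% in B27 alone, 18.7% in B31 alone and 50.3% without the limit. Leaving out 1 library gave 58 to 78 genes up and 137 to 189 down, and 36 of the 68 and 65 of the 185 calls were kept in all 8 such fits. The effect at 3 h differed from that at 1 h in 1462 to 1575 genes, from that at 6 h in 3679 to 4031 and from that in differentiated cells in 174 to 247 when 1 library of 3 h was left out, and the last count, 291, was 527 with the experiment as a covariate and 520 with DESeq2. Cyp1b1 turned from falling to 0.14 in B31, alone or in 1 model with both experiments. The log2 fold change of Tiparp, which did not pass the test, turned to 0.22 in B31 under both fits, and to 0.012 and 0.032 without non-stretched replicate 7 and 8 (from -0.0995 to 0.032 over the fits without 1 library). Same-numbered libraries had correlations of 0.049, 0.12, 0.030 and 0.017 in their deviations from the group means. Other pairs of the same experiment had 0.0045 to 0.13, so the numbers were not read as pairs. Libraries did share deviations by experiment, since all pairs across experiments had negative correlations (-0.12 to -0.0041). The pooled test leaves this out. A fit with the replicate number as a block gave 72 genes up and 182 down, and one with the experiment as a covariate gave 74 and 189. With all 24 myoblast libraries in 1 model 65 genes were up and 192 down, 52 and 158 of them shared with the fit of 8 libraries, and 18 named genes no longer passed. The causes were not tested. Depth limits the genes under 100 counts, which hold 171 of the 253 calls.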
